A study of Gallus gallus with 16 samples.

Results

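The genes described here are 3 neighbours on chicken chromosome 2, ENSGALG00000034150, ENSGALG00000019696 and ENSGALG00000027973, out of 24881 genes in the count table. They lie between 4018778 and 4026402 on the galGal5 build and are taken as genes of the chicken cathelicidin cluster. They were chosen by their values, as a run of neighbours that was abundant in unlabelled HH25 cells and near 0 in labelled HH25 cells. Those HH25 values are therefore given as a description, with no test.

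Cathelicidins are antimicrobial peptides of the innate immune system, released from larger precursors that share a conserved cathelin domain. In the chicken they are best known from heterophils, the avian counterpart of the mammalian neutrophil, which store them in granules. Granulocytes arise from blood-forming tissue and not from the neural crest, whose cells migrate out of the dorsal neural tube.

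RNA was sequenced from cells sorted out of the vagal region, at the level of the hindbrain, of wild-type chick embryos. All groups, the unlabelled cells included, came from embryos electroporated with NC2:citrine and E2:citrine reporters, at HH4 for the HH10 groups and at HH8/9 for the later ones, so that stage and time of electroporation changed together. As background, the NC2 enhancer belongs to FOXD3 and the E2 enhancer to SOX10, which encode crest transcription factors. At HH10, HH18 and HH25 (Hamburger-Hamilton stages), E2 cells were positive for E2 and not NC2, negative cells were positive for neither, and double-positive (DP) cells, collected at HH18 and HH25, were positive for both. Each of the 8 groups had 2 libraries. The labels give no numbers of embryos or cells per library. Whether 2 libraries of a group stem from different embryos is not stated either; the p-values below reflect only how far these libraries differ, and that spread may be technical. The sample records call the first stage HH10, as is done here, whereas the series text and the table's columns give HH12. Libraries are numbered as in the table, 1 and 3 at HH10, 2 and 3 for HH25 DP cells, and 1 and 2 elsewhere.

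Total counts per library ran from 4032540 in HH18 negative library 2 to 45313160 in HH10 E2 library 3, and 11693 to 15661 genes had counts. Levels are counts per 1e6 scaled by TMM (CPM), and 1 count was worth 0.0204 to 0.280 CPM. All sorted groups are bulk samples, so fewer cells of a type and less RNA per cell cannot be told apart in any level below. The table gives identifiers without gene names, and the RefSeq gene table paired 0 of them with a symbol. Marker genes of crest, blood and other cell types were therefore not looked up, and the labels of the sorted populations were not checked against them.

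The name of the cluster rests on position and gene length. Inside the 7.625 kb the table lists 4 genes, the 3 members and ENSGALG00000027490 (4022675 to 4023803, minus strand, 4 exon intervals). ENSGALG00000034150 (4018778 to 4019952) lies on the plus strand with 5 exon intervals. ENSGALG00000019696 (4020689 to 4022467) and ENSGALG00000027973 (4024913 to 4026402) lie on the minus strand with 4 exon intervals each. In order along the chromosome the 4 genes span 1175, 1779, 1129 and 1490 bases. In the RefSeq table for the GRCg7b assembly, the cathelicidin genes CATH3, CATH2, CATHB1 and CATH1 are consecutive on chromosome 2, with lengths of 1261, 1775, 1129 and 1487 bases. They follow KLHL18 and LOC124417717 and precede TBRG4. No identifier was given any of these names here, since the builds differ and no identifier was paired.

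In HH25 negative cells the 3 genes were abundant. ENSGALG00000019696 had the highest level of the 3, at 772 and 637 CPM in libraries 1 and 2. ENSGALG00000027973 followed at 454 and 426 CPM, and ENSGALG00000034150 at 410 and 375 CPM. The libraries lay close together for each gene, and together the 3 genes held 0.153% and 0.140% of all counts. Per kilobase of annotated exon the order of the lower pair turned: ENSGALG00000019696 stood at 1499 and 1238 CPM per kb, ENSGALG00000034150 at 905 and 828, and ENSGALG00000027973 at 582 and 546. By that measure ENSGALG00000019696 ranked 65th and 63rd of the 14676 genes that passed the filter on low counts, ENSGALG00000034150 155th and 138th, and ENSGALG00000027973 309th and 235th.

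**Figure D1:**
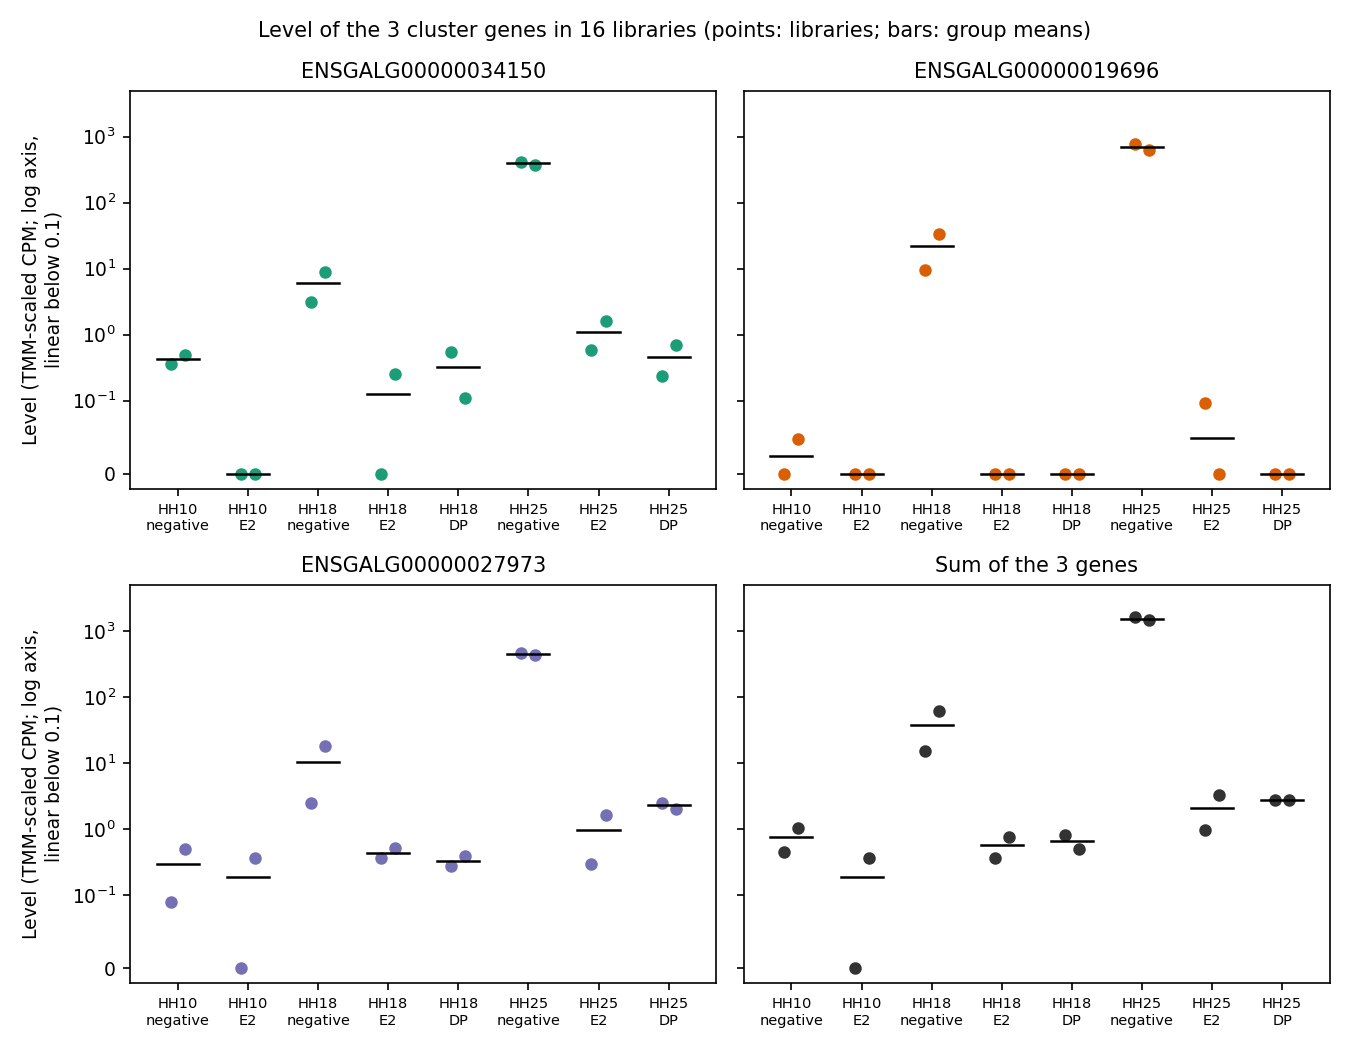
Level of each of the 3 genes and of their sum (TMM-scaled CPM, log axis that is linear below 0.1) in the 16 libraries, by stage and sorted population. Points are libraries and bars are group means; the HH25 negative libraries lie highest in every panel, at 1637 and 1438 CPM for the sum, followed by the HH18 negative libraries at 15.2 and 60.6 CPM.

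Summed over the 3 genes, the groups fell into 3 tiers. HH25 negative cells stood at 1538 ± 140 CPM (SD, n = 2). HH18 negative cells came next at 37.9 ± 32.1 CPM (SD, n = 2), with 15.2 CPM in library 1 and 60.6 CPM in library 2. Both lay above all of the other 12 libraries, which ranged from 0 to 3.22 CPM. The spread of HH18 negative cells was nearly as large as their mean, but their libraries overlapped with those of no other group.

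Among the low groups, HH25 DP cells had 2.73 ± 0.0153 CPM (SD, n = 2) and HH25 E2 cells 2.09 ± 1.59 CPM. HH10 negative cells had 0.746 ± 0.418 CPM, HH18 DP cells 0.653 ± 0.225 CPM, HH18 E2 cells 0.559 ± 0.282 CPM and HH10 E2 cells 0.183 ± 0.259 CPM. Each neighbouring pair in this order overlapped. Groups further apart did not all overlap, since both HH25 DP libraries (2.74 and 2.72 CPM) lay above every HH10 and HH18 library of the low groups, the highest of which had 1.04 CPM. The sum rested on 18 counts in HH10 E2 and in HH18 DP cells and on 149 counts in HH25 DP cells.

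At HH25, the genes stood far higher in negative than in labelled cells. In pooled counts the sum was 748 times that of E2 cells (95% counting interval 557 to 1030) and 578 times that of DP cells (492 to 684). The E2 libraries differed by more than this interval covers, and leaving out E2 library 1 gave a ratio of 489, leaving out library 2 one of 1631. For ENSGALG00000034150 the ratio was 363 (242 to 573) over E2 and 682 (483 to 998) over DP cells, or 689 without E2 library 2 and 1699 without DP library 3. For ENSGALG00000027973 it was 466 (302 to 763) over E2 and 208 (174 to 252) over DP cells, and over E2 cells 277 without E2 library 1 and 1539 without E2 library 2. ENSGALG00000019696 had 20324 counts in the negative libraries, 1 count in the E2 libraries and 0 in the DP libraries. Its ratio over E2 cells was 15258 (2738 to 602702), and with a floor of 3 pooled counts its level was at least 12861-fold higher than in DP cells. Without E2 library 2 the ratio over E2 cells was 7559, without E2 library 1 it was at least 2567, and without DP library 3 the bound over DP cells was 3106. Intervals and floors come from pooled counts and cover counting error only, not the spread between libraries. PCR copies were not told apart by molecular identifiers, so the intervals may be too narrow even for counting error. The comparisons with E2 and with DP cells share the HH25 negative libraries.

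The genes were already detected in HH18 negative cells, in libraries that did not enter their choice. ENSGALG00000019696 had 70 and 120 counts in the HH18 negative libraries, or 9.58 and 33.7 CPM. It had no count in either HH18 E2 library and none in either HH18 DP library. ENSGALG00000034150 stood at 3.15 and 8.97 CPM in negative cells, against 0 and 0.253 CPM in E2 and 0.541 and 0.110 CPM in DP cells. ENSGALG00000027973 stood at 2.46 and 17.9 CPM in negative cells, against 0.360 and 0.506 CPM in E2 and 0.271 and 0.384 CPM in DP cells. For each gene both negative libraries lay above all 4 labelled libraries, and library 2 was the higher of the pair. The share of all genes that separate in this way was not counted, so the separation is given as a description.

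In the fit over all 16 libraries, 2 of the 3 genes were lower in HH18 E2 than in negative cells (edgeR's quasi-likelihood test, p-values adjusted by Benjamini-Hochberg over 14676 genes). The share of all tested genes called lower in this comparison was 0.736%. This fit takes each gene's spread partly from the HH25 libraries that chose the genes. Fitted on the HH18 E2 and negative libraries alone, edgeR called 3 of the 3 (adjusted p of 4.45e-04 to 0.0305). That fit called 677 of 12643 genes in either direction. All 3 genes passed its filter only through HH18 negative cells, where they are high, so these calls are no separate support. With only the 10 HH10 and HH18 libraries in the filter and the fit, edgeR called 0 of the 3. There it called 105 of 14124 genes (0.743%) in either direction, against 116 of 14676 on all 16 libraries. ENSGALG00000019696 was lower by a factor of at least 245 in E2 cells, with an adjusted p of 0.00139 (0.0855 on the 10 libraries). This bound ran from 115 to 471 when 1 library was left out. ENSGALG00000034150 had a log2 fold change of -5.53 (SE 1.05, adjusted p = 0.0263, or 0.408 on the 10 libraries). ENSGALG00000027973 had a log2 fold change of -4.50 (SE 1.04) and did not pass (adjusted p = 0.0699, or 0.439 on the 10 libraries). With the table's library numbers as a replicate block its adjusted p was 0.0375, in a fit that called 0.859% of all tested genes in either direction. The call of ENSGALG00000034150 ended without HH18 negative library 2 (adjusted p = 0.190) or without E2 library 1 (adjusted p = 0.229).

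Between HH18 DP and negative cells, 1 of the 3 genes was lower in DP cells, where 0.368% of all tested genes were. Fitted on the HH18 DP and negative libraries alone, edgeR called 1 of the 3 (ENSGALG00000019696, adjusted p = 0.0279). That fit called 95 of 11921 genes in either direction. All 3 genes passed its filter only through HH18 negative cells, so this call is no separate support either. On the 10 HH10 and HH18 libraries edgeR called 0 of the 3 genes. There it called 38 of 14124 genes (0.269%) in either direction, against 68 of 14676 on all 16 libraries. ENSGALG00000019696 was at least 171-fold lower (edgeR, adjusted p = 0.00320, or 0.128 on the 10 libraries), a bound that ran from 64.6 to 329 when 1 library was left out. ENSGALG00000034150 had a log2 fold change of -4.29 (SE 0.989, adjusted p = 0.103) and ENSGALG00000027973 one of -4.86 (SE 1.10, adjusted p = 0.0830). DESeq2 on all 16 libraries called 3 of 3 genes in this comparison and in that of E2 with negative cells. It called 2.57% and 2.95% of all genes tested there, in either direction. With the replicate block, edgeR called 2 genes here (ENSGALG00000027973 at adjusted p = 0.0415) and 0.511% of all genes tested, in either direction. Both comparisons share the HH18 negative libraries.

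No difference between DP and E2 cells at HH18 was detectable in these genes at this depth. Of the 3 genes 0 were called by edgeR, where 0.368% of tested genes were called in either direction, and 0 were at an unadjusted p under 0.05; DESeq2 also called 0, and 2.77% of all genes. ENSGALG00000019696 had no count in either group. The log2 fold change of ENSGALG00000034150 was 1.24 (SE 1.19) on 8 counts in DP and 5 in E2 cells. That of ENSGALG00000027973 was -0.36 (SE 1.13) on 10 and 18 counts.

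**Figure D2:**
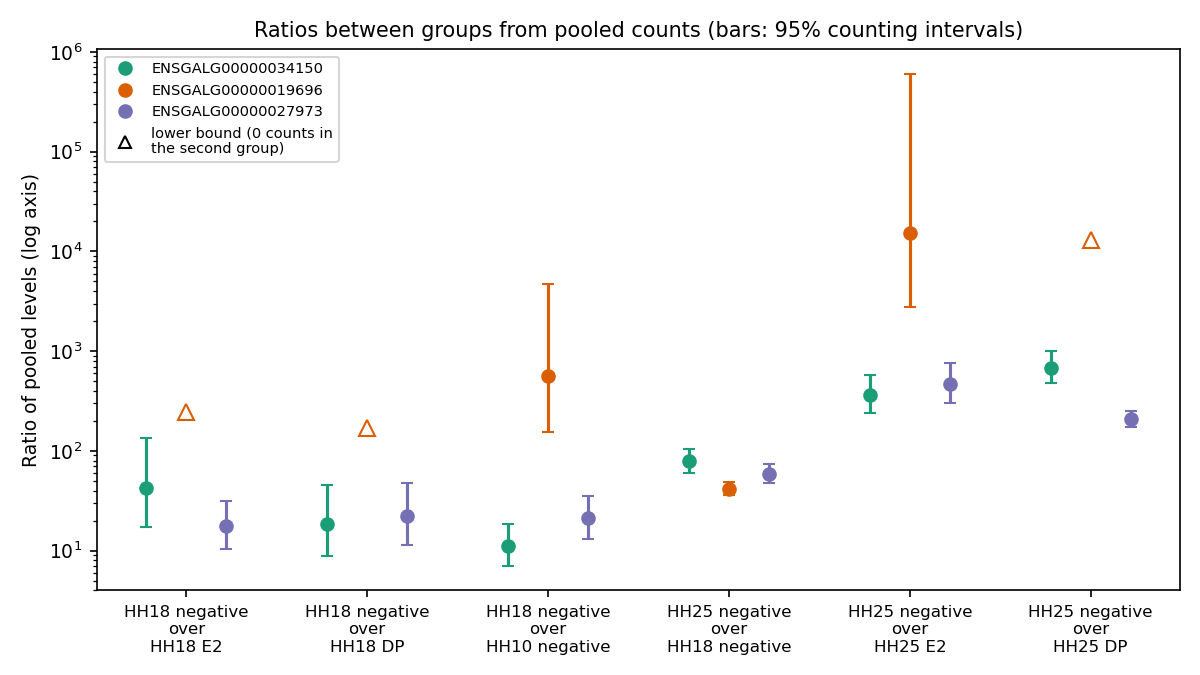
Ratio of pooled levels between groups (log axis) for the 3 genes, with bars for 95% counting intervals and open triangles for lower bounds where the second group had 0 counts. In HH18 negative cells ENSGALG00000019696 was at least 245-fold above E2 cells, while between HH25 and HH18 negative cells it had the smallest ratio of the 3 genes, at 41.7.

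In unlabelled cells the genes were higher at the later stages. From HH10 to HH18 all 3 genes were called higher in negative cells, where 1.96% of tested genes were (edgeR, all 16 libraries). Fitted on the HH10 and HH18 negative libraries alone, edgeR called 3 of the 3 (adjusted p of 2.28e-04 to 0.0152). That fit called 1955 of 12833 genes in either direction. Its filter, too, passed the 3 genes only through HH18 negative cells. On the 10 HH10 and HH18 libraries edgeR called 0 of the 3, at adjusted p of 0.0542 (ENSGALG00000019696), 0.216 (ENSGALG00000027973) and 0.369 (ENSGALG00000034150). There it called 318 of 14124 genes (2.25%) in either direction, against 358 of 14676 on all 16 libraries. ENSGALG00000019696 went from 0 and 0.0474 CPM at HH10 to 9.58 and 33.7 CPM at HH18, 563 times the pooled HH10 level (154 to 4681, on 2 counts at HH10; adjusted p = 6.82e-04). Without HH18 negative library 1 or 2 this ratio was 1084 or 309, without HH10 negative library 1 it was 369, and without HH10 negative library 3 it was at least 129. ENSGALG00000027973 went from 0.0901 and 0.497 CPM to 2.46 and 17.9 CPM (log2 fold change 4.93, SE 1.04, adjusted p = 0.0207). ENSGALG00000034150 went from 0.360 and 0.497 CPM to 3.15 and 8.97 CPM (log2 fold change 3.74, SE 0.895, adjusted p = 0.0458). Without HH10 negative library 1 or 3, or without HH18 negative library 2, the calls of ENSGALG00000027973 and ENSGALG00000034150 ended (adjusted p of 0.0780 to 0.373) and that of ENSGALG00000019696 did not.

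The fit on the 10 HH10 and HH18 libraries was added after the data were seen. In it edgeR gave 3, 2 and 2 of the 3 genes an unadjusted p under 0.05 in the comparisons of HH18 negative cells with E2, DP and HH10 negative cells. DESeq2 on these 10 libraries called 1, 1 and 2 of the 3 genes, and 3.63%, 2.86% and 7.59% of all genes in either direction. ENSGALG00000019696 had a DESeq2 adjusted p of 1.56e-05, 9.43e-05 and 2.97e-05 in the same order. ENSGALG00000019696 and ENSGALG00000027973 passed the filter on these 10 libraries only through HH18 negative cells, where they are high.

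From HH18 to HH25 the levels in negative cells differed further. In pooled counts the sum at HH25 was 52.3 times that at HH18 (46.9 to 58.5). The HH18 negative libraries differed by more than this interval covers, and the ratio was 26.0 without library 1 and 104 without library 2. The ratio was 41.7 (36.2 to 48.4) for ENSGALG00000019696, 59.1 (47.5 to 74.3) for ENSGALG00000027973 and 78.9 (60.6 to 105) for ENSGALG00000034150. Without HH18 negative library 1 these ratios were 21.7, 24.8 and 44.4, and without library 2 they were 76.1, 181 and 127. No test is given for this step, because the HH25 negative libraries were used to choose the genes.

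In E2 cells the levels at HH10 and HH18 were low, and no change between these stages was called. ENSGALG00000019696 had no count in the 4 libraries. ENSGALG00000027973 had 18 counts at each stage, at 0 and 0.367 CPM at HH10 and 0.360 and 0.506 CPM at HH18 (log2 fold change 0.81, SE 1.07, edgeR adjusted p = 0.700). ENSGALG00000034150 had 0 counts at HH10 and 5 at HH18 (adjusted p = 0.196). Of the 3 genes 0 were called, where 3.80% of tested genes were called higher, and 1 was at an unadjusted p under 0.05. DESeq2 called 0 of the 3, and 13.7% of all genes in either direction. At HH25 the sum in E2 cells was 0.965 and 3.22 CPM, 3.84 times the HH18 level in pooled counts (2.27 to 6.66), and in DP cells it was 4.43 times the HH18 level (2.71 to 7.68). For E2 cells this ratio was 1.76 without HH25 library 2, 5.88 without HH25 library 1 and 5.84 without HH18 library 2. In both populations the HH25 libraries lay above the HH18 libraries in the sum, at 1 to 3 CPM, far under the level of negative cells. Single genes did not all do so. In DP cells ENSGALG00000027973 went from 0.271 and 0.384 to 2.50 and 2.03 CPM. ENSGALG00000034150 overlapped there (0.541 and 0.110 against 0.235 and 0.691 CPM). In E2 cells ENSGALG00000034150 went from 0 and 0.253 to 0.579 and 1.61 CPM. ENSGALG00000027973 overlapped there (0.360 and 0.506 against 0.289 and 1.61 CPM). ENSGALG00000019696 had at most 1 count per group.

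Between E2 and negative cells at HH10, 0 of the 3 genes were called, where 1.42% of tested genes were called lower in E2 cells (edgeR). ENSGALG00000034150 had 8 and 21 counts in the negative libraries and 0 in the E2 libraries, a level in E2 cells lower by a factor of at least 8.77 (adjusted p = 0.0907), or at least 1.85 without E2 library 3. It had an unadjusted p under 0.05, as 1 of the 3 genes, and DESeq2 called it (adjusted p = 0.0109), with 5.40% of all genes in either direction. ENSGALG00000027973 had 23 counts in negative and 18 in E2 cells (adjusted p = 1). The test of whether the difference between E2 and negative cells was itself different at HH18 and HH10 called 0 of the readable genes, where 0.804% of tested genes were called. ENSGALG00000027973 had a log2 difference of -4.13 (SE 1.46, unadjusted p = 0.0137, adjusted p = 0.343). It gave no readable value for ENSGALG00000019696, which had no count in E2 cells at either stage.

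The 3 genes did not share the counts in the same way in high and low groups. ENSGALG00000019696 held 47.2% and 44.3% of the 3-gene counts in the HH25 negative libraries. In the HH18 negative libraries it held 63.1% (95% exact binomial interval 53.4 to 72.0) and 55.6% (48.7 to 62.3). In both it was the largest share. Over the other 12 libraries pooled it held 3 of 306 counts, or 0.980% (0.203 to 2.84). In HH25 DP cells it held 0 of 149 counts, where a floor of 3 counts is a share of 2.01% and the exact binomial interval reaches 2.45%.

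Apart from 3 of 306 counts, those that remained in low groups belonged to the other 2 genes. In HH25 DP cells ENSGALG00000027973 held 117 of 149 counts, or 78.5% (71.1 to 84.8), against 28.3% (27.9 to 28.7) in HH25 negative cells. In HH10 E2 cells it held all 18 counts, all of them in library 3. In HH10 negative cells ENSGALG00000034150 held 29 of 54 counts and ENSGALG00000027973 23. The HH25 DP libraries differed in this: ENSGALG00000034150 held 8.57% (1.80 to 23.1) in library 2 and 25.4% (17.7 to 34.4) in library 3, against 25.4% (24.9 to 25.8) in HH25 negative cells. Reads of close gene copies may have been divided between the genes in the authors' counting, which bears on each single level more than on the sum.

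**Figure D3:**
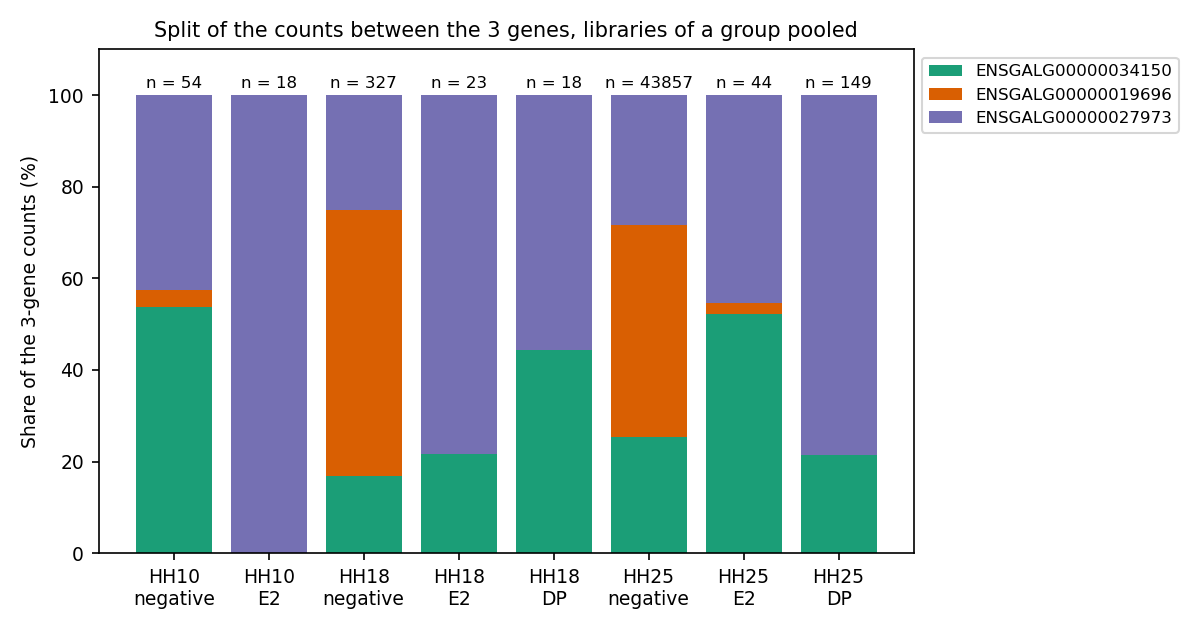
Share of the 3-gene counts (percent) held by each gene in each group, with the libraries of a group pooled and the number of counts above each bar. ENSGALG00000019696 holds 58.1% in HH18 negative and 46.3% in HH25 negative cells and at most 3.70% in the 6 other groups, whose bars rest on 18 to 149 counts.

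The nearest genes on either side did not share these levels. ENSGALG00000027490, which lies between ENSGALG00000019696 and ENSGALG00000027973, had 0 counts in all 16 libraries. In HH25 negative cells a floor of 3 counts over the group is 0.108 CPM. ENSGALG00000005582, which ends 2.62 kb before the cluster, had 29.2 ± 0.648 CPM (SD, n = 2) in HH25 negative, 13.6 ± 3.88 CPM in HH25 E2 and 58.1 ± 13.5 CPM in HH25 DP cells. ENSGALG00000038102, which starts 1.14 kb after it, had 154 ± 72.4, 180 ± 116 and 166 ± 64.1 CPM in the same groups. Among the 5 nearest genes on each side, ENSGALG00000044874 (12.7 ± 7.95 CPM) and ENSGALG00000026888 (1.54 ± 0.587 CPM) had their highest group mean in HH25 negative cells. For ENSGALG00000044874 both HH25 negative libraries (18.3 and 7.07 CPM) lay above all other libraries. It had 4.64 ± 1.34 CPM in HH25 E2, 0.691 ± 0.203 CPM in HH25 DP and 0.345 ± 0.0919 CPM in HH18 negative cells. ENSGALG00000026888, of 136 bases, lies within the span of ENSGALG00000038102 on the same strand, so reads of the pair may not be told apart. The same holds for ENSGALG00000025355, ENSGALG00000017836 and ENSGALG00000025361, of 142, 138 and 137 bases. The 5 genes after the cluster are therefore not separate neighbours. Of these 10 genes 9 passed the filter, and edgeR called 0 of them in each of the 7 comparisons of HH10 and HH18 cells. These comparisons called 54 to 711 of all 14676 tested genes, so 0 of 9 is near the share over all genes. ENSGALG00000043906 had 0 CPM in every HH18 group. ENSGALG00000025355, ENSGALG00000017836 and ENSGALG00000026888 had group means of at most 0.787 CPM at HH10 and HH18, too low for a call to be likely.

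**Figure D4:**
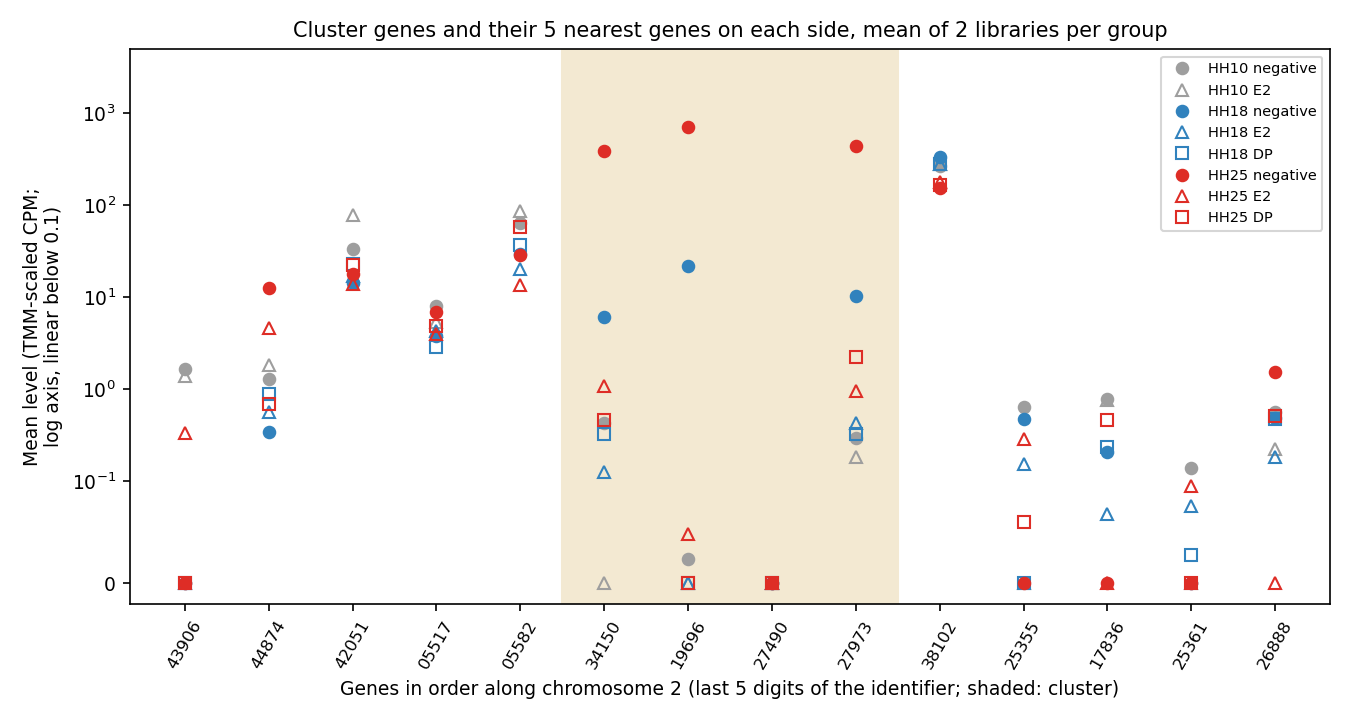
Mean level per group (TMM-scaled CPM, log axis that is linear below 0.1, n = 2 libraries) of the 4 genes in the cluster (shaded) and the 5 nearest genes on each side, in order along chromosome 2. Filled red and blue circles, the HH25 and HH18 negative cells, stand apart from the other groups for the 3 members, and ENSGALG00000027490 lies at 0 in all groups.

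Across the 16 libraries the 3 genes followed each other, with Pearson correlations of log2(CPM + 1) of 0.979 for ENSGALG00000034150 with ENSGALG00000019696, 0.984 for ENSGALG00000034150 with ENSGALG00000027973 and 0.970 for ENSGALG00000019696 with ENSGALG00000027973. These values describe libraries that share 2 high groups and carry no test. Among 6381 other genes that averaged 20 CPM or more in HH25 negative cells, 14 had a correlation of at least 0.9 with the sum. The 5 highest are ENSGALG00000028273 on chromosome 1 (194567561 to 194575005, r = 0.985), ENSGALG00000016668 (r = 0.984), ENSGALG00000016669 (r = 0.983) and ENSGALG00000022815 (r = 0.973) on chromosome 3, and ENSGALG00000006323 on chromosome 13 (15273853 to 15278709, r = 0.972). The 3 genes of chromosome 3 are neighbours within 107900662 to 107917298.

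These 5 genes were chosen by their correlation with the sum over these 16 libraries, so the same 2 high groups follow from that choice. ENSGALG00000006323 reached 1918 and 2332 CPM in HH25 negative cells and 32.4 and 270 CPM in HH18 negative cells, and at most 0.878 CPM elsewhere. ENSGALG00000028273 stood at 119 and 137 CPM in HH25 negative and 9.99 and 30.6 CPM in HH18 negative cells. Each of the 5 was higher in HH18 negative library 2 than in library 1, as were the 3 cluster genes. This order also entered the correlation and is no separate finding. Unlike the cluster sum, the chromosome 3 genes had no count in the 4 HH10 libraries.

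**Figure D5:**
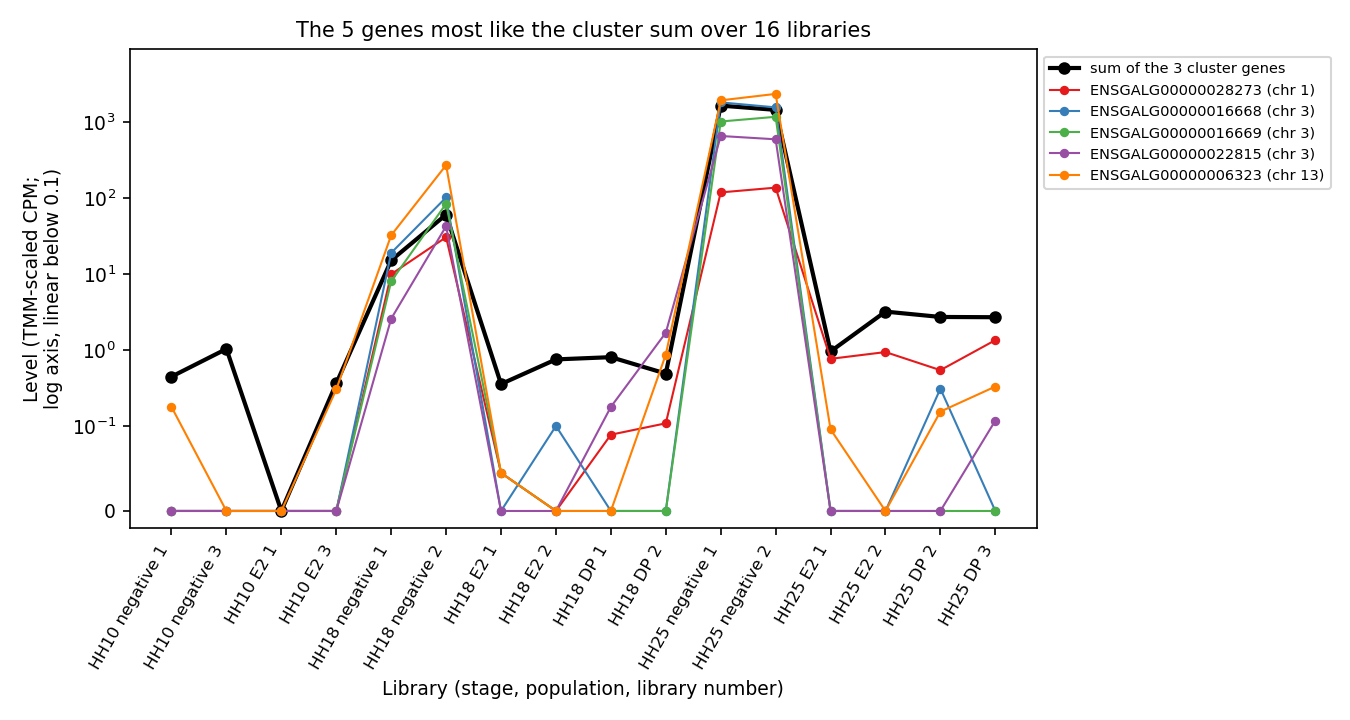
Level (TMM-scaled CPM, log axis that is linear below 0.1) of the cluster sum (black) and of the 5 genes most correlated with it in the 16 libraries. All 6 lines peak in the HH25 negative libraries and have a lower peak in the HH18 negative libraries, where library 2 is the higher (60.6 against 15.2 CPM for the cluster sum).

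Another run of 3 neighbours that was low in HH25 E2 and DP cells, on chromosome 21 (6083120 to 6090874), had another pattern at HH18. Its 3 genes summed to 471 and 406 CPM in the HH18 negative and to 767 and 779 CPM in the HH18 DP libraries. The cluster summed to 15.2 and 60.6 CPM in those negative libraries and 0.812 and 0.494 CPM in those DP libraries. The chromosome 3 run, made of the 3 chromosome 3 genes chosen above by correlation with the sum, is no independent comparison. It stood at 29.7 and 229 CPM in HH18 negative and at 0.180 and 1.70 CPM in HH18 DP cells. HH18 negative library 2 was thus 3.99 times library 1 for the cluster sum, 7.70 times for the chromosome 3 run and 0.861 times for the chromosome 21 run. HH18 negative library 2 was also the library of lowest depth, whose part in these values was not tested.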

How the data were processed

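RNA-seq of 16 sorted-cell libraries was analysed from the deposited table of raw read counts per gene, which the authors did not normalize (whole numbers, a different total in each library). Per the labels' protocols, cDNA came from a full-length low-input kit and libraries from Nextera XT. STAR 2.4.2a, Subread 1.4.5, featureCounts, DESeq2 and the galGal5 build are named in the submitters' processing notes. The sources used here do not give strand or multi-mapping settings, so reads of overlapping or similar genes may be shared.

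The main test was edgeR's quasi-likelihood F test (edgeR 4.0.16, R 4.3.3; TMM, filterByExpr, 8 group means, 8 residual degrees of freedom). Calls needed an adjusted p (Benjamini-Hochberg over 14676 genes) under 0.05. There were 7 comparisons, none with HH25 groups. The 3 genes passed the filter, also with HH10 and HH18 libraries alone. There ENSGALG00000019696 had 190 counts in HH18 negative cells, 2 in HH10 negative cells and 0 in labelled cells. It thus passed through the group where it is high. ENSGALG00000027973 also passed there only through HH18 negative cells. In the fits of HH18 negative cells with a single other group, all 3 genes passed only through HH18 negative cells. Group ratios used pooled counts with exact 95% intervals, or a floor of 3 counts over a group at 0. The script was tested on counts simulated for HH18 E2 against negative cells, with the same spread for every gene. That run checks the script and not the calls of these 3 genes. DESeq2 1.42.0 and the other alternatives are in the closing section.

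The members, comparisons and rules were chosen with earlier results of these data known. Named are the members, the 5 nearest genes on each side and the 5 genes most correlated with the sum. Lists of antimicrobial and cell type marker genes gave no result, since 0 identifiers were paired with symbols. The chromosome 21 run was chosen after its values were seen.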

Additional observations from a re-analysis of the deposited data

How the results depend on the processing

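The direction of the 6 calls was the same under each alternative run, and their adjusted p ranged widely: 1.29e-06 to 0.408 (ENSGALG00000034150) and 3.54e-10 to 0.0855 (ENSGALG00000019696) for HH18 E2 against negative cells, 6.20e-09 to 0.128 (ENSGALG00000019696) for DP against negative cells, and, for HH18 against HH10 negative cells, 6.87e-05 to 0.373 (ENSGALG00000034150), 2.83e-12 to 0.0542 (ENSGALG00000019696) and 3.98e-06 to 0.356 (ENSGALG00000027973). With all 16 libraries, members called for DP against negative cells rose from 1 to 3 with DESeq2 or no filter and to 2 with the replicate block, and for HH10 E2 against negative cells from 0 to 1 with DESeq2 or no filter. With no filter, calls over all genes rose as well. They went from 68 and 243 of 14676 to 116 and 347 of 17370 genes in these comparisons, in either direction. Leaving out 1 library changed the size of the log2 fold changes in 3 comparisons: HH18 E2 against negative, DP against negative and HH18 against HH10 negative cells. In that order they ran from -9.84 to -4.55, -5.64 to -3.39 and 2.86 to 4.39 for ENSGALG00000034150. The -9.84 came without HH18 E2 library 2, which leaves 0 counts in E2 cells, where the pooled ratio is only bounded, at 37.5 or more. For ENSGALG00000027973 the log2 fold changes ran from -5.38 to -2.50, -5.73 to -2.85 and 2.95 to 6.67. The calls that ended are named in the results, where an arm left with 1 library is assumed to vary like the others. With only HH10 and HH18 libraries, chosen after seeing the data, edgeR called 0 in these 3 comparisons and DESeq2 called 1 against E2 cells; the cause was not tested. Uncalled log2 values changed sign when 1 library was left out. For HH10 E2 against negative cells ENSGALG00000027973 ranged from -5.52 (without E2 library 3) to 1.36 (without negative library 3), with 0.18 without E2 library 1. In the difference between stages it ranged from -5.86 (without HH10 negative library 3) to 1.03 (without HH10 E2 library 3), and ENSGALG00000034150 from -3.74 (without HH18 E2 library 2) to 1.56 (without HH18 negative library 2). In DP against E2 cells ENSGALG00000034150 ranged from -0.093 (without DP library 1) to 5.55 (without E2 library 2, which leaves 0 counts in E2 cells). The HH25 DP sum was 2.91 CPM without TMM and 2.59 CPM with DESeq2 size factors. Per kb of exon the shares in HH25 negative cells were 31.0% (ENSGALG00000034150), 48.8% (ENSGALG00000019696) and 20.2% (ENSGALG00000027973). The replicate block used the table's library numbers; same-numbered HH18 libraries did not deviate together (correlations of -0.0676, -0.00319 and -0.274), nor did HH25 negative and E2 libraries (-0.158), while HH10 negative and E2 libraries did (0.468). With 2 pairs this does not show a pairing, and the labels give none, so the libraries are taken to share only a number. HH18 against HH10 had no block fit because its groups share 1 number. The block called 3 members for HH18 E2 against negative cells and 0 for HH10 E2 against negative cells. Over all 14676 genes it called 126 and 202 in these comparisons, in either direction. Ratios of pooled counts with each library left out, also chosen after seeing the data, stand beside the ratios in the results where they moved them by over 1.5 times. Low counts outside negative cells limit every comparison there.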
